A study of Mus musculus with 20 samples.

Results

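The genes examined here were 44 mouse genes of fatty acid oxidation and of the PPARA program, measured by RNA-seq in whole liver. They were chosen by name, as genes of mitochondrial and peroxisomal oxidation, ketone body metabolism and omega-oxidation and as other PPARA targets, and the rule itself uses no measured value. All 44 were listed in both deposited RNA-seq tables, among 56884 genes in the male table and 18149 in the female table, and all are annotated as protein coding.

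The study compared livers of WT mice, labelled Midn XTR, with livers of Midn-T mice, labelled Midn TR, in each sex. The XTR allele is a gene trap in Midn that Cre inverts into the trapped state TR, and Albumin-Cre, which acts in hepatocytes, drove the inversion. The alleles were made in C57BL/6J embryos, the mice were 11 to 14 weeks old, and no other treatment is described. Whether the WT mice carried Cre is not given in the sources used here. RNA-seq covered 3 livers per genotype and sex. Another 8 samples, for ATAC-seq, were not used. The whole liver also holds Kupffer, endothelial and stellate cells, which Albumin-Cre does not target, and in such bulk samples fewer cells of a type and less RNA per cell cannot be told apart.

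PPARA is a nuclear receptor that binds DNA as a partner of the retinoid X receptor and responds to fatty acids and their derivatives. In the liver it drives genes for the uptake and activation of fatty acids, their passage into mitochondria on carnitine, their shortening in mitochondria and peroxisomes, and the making of ketone bodies, above all during fasting. Cytochrome P450 enzymes of the Cyp4a family, which oxidize fatty acids at the far end of the chain, are among its most responsive targets in rodents.

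The measurement used was the mean normalized count of each gene, which the authors took over the 6 samples of one sex after dividing the read counts by size factors. Each mean therefore pools 3 WT and 3 Midn-T livers. No value of a single sample was used, so no mean below has a replicate error, no comparison between WT and Midn-T is given, and no difference between the sexes was tested. The read depth of a sample cannot be read from a mean, and counting intervals were not computed. The male and the female table were also normalized separately. Sex, any difference between the runs, and a genotype effect that differs by sex cannot be told apart in a ratio of the 2 means. The same holds for feeding state and hour of collection, which the authors' methods do not give. It also holds for exact age, given only as a range.

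The tables fitted their labels. Hepatocyte markers were high in both sexes, with mean normalized counts of 1.73e+06 for Alb in males and 2.33e+06 in females. Xist had a mean of 14.0 in the male table and 72478 in the female table. The Y-linked Ddx3y, Uty, Eif2s3y and Kdm5d had means of 964 to 3147 in the male table and had no row in the female table. Midn itself had a mean of 1672 in males and 1357 in females, which checks no genotype label because each mean holds both genotypes.

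The promoter of Fabp1, which encodes the liver fatty acid binding protein, is shown because it held a loose match to the repeat that PPARA binds. It was the only such match among the 34 members with a promoter entry. A pair of AGGTCA copies with 1 base between them forms the direct repeat known as DR1. The letters AGGTCANAGGTCA, searched on both strands from 250 bases before to 50 after the RefSeq start, were in the promoters of 13 of 27025 genes (0.0481%) and of none of the 34 members with an entry. The looser AGGNCANAGGNCA, which includes every match of the first, was in 122 promoters (0.451%) and in 1 of the 34, that of Fabp1. The 120 bases before the Fabp1 start are given below (RefSeq, GRCm38.p6, chr6:71199759-71199878, plus strand). The capitals mark the match, which reads on the minus strand and runs from 67 to 55 bases before the start.
Fabp1: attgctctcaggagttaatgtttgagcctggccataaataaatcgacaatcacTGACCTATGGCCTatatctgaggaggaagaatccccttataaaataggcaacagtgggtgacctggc
The match describes letters in this window and was not tested as a binding site. The members without an entry were Abcd2, Acaa2, Angptl4, Crat, Cyp4a10, Cyp4a14, Cyp4a31, Decr1, Hsd17b4 and Vnn1. Of these, Abcd2, Cyp4a10, Cyp4a14, Cyp4a31 and Vnn1 are among the members past 2-fold between the sexes below, and their promoters were not searched.

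Most of the 44 genes were among the abundant transcripts of the liver in both sexes. Their median mean normalized count was 4823 in males and 6314 in females, against 286 and 280 over all ranked genes, that is, genes with a mean of 10 or more and an annotated length. Fgf21 and Pdk4 lay below that all-gene median in both sexes, and Cyp4a31 in males. To compare genes with each other, each mean was divided by the exon length in kilobases, and on this scale 30 of the 44 were in the top 10% of 16508 genes in males and 32 in the top 10% of 16916 genes in females. Together the 44 genes held 1.25% of the summed mean of all genes in the male table and 1.34% in the female table. The range within the group was wide, since the highest member exceeded the lowest 6334-fold per kilobase in males and 8601-fold in females.

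**Figure D1:**
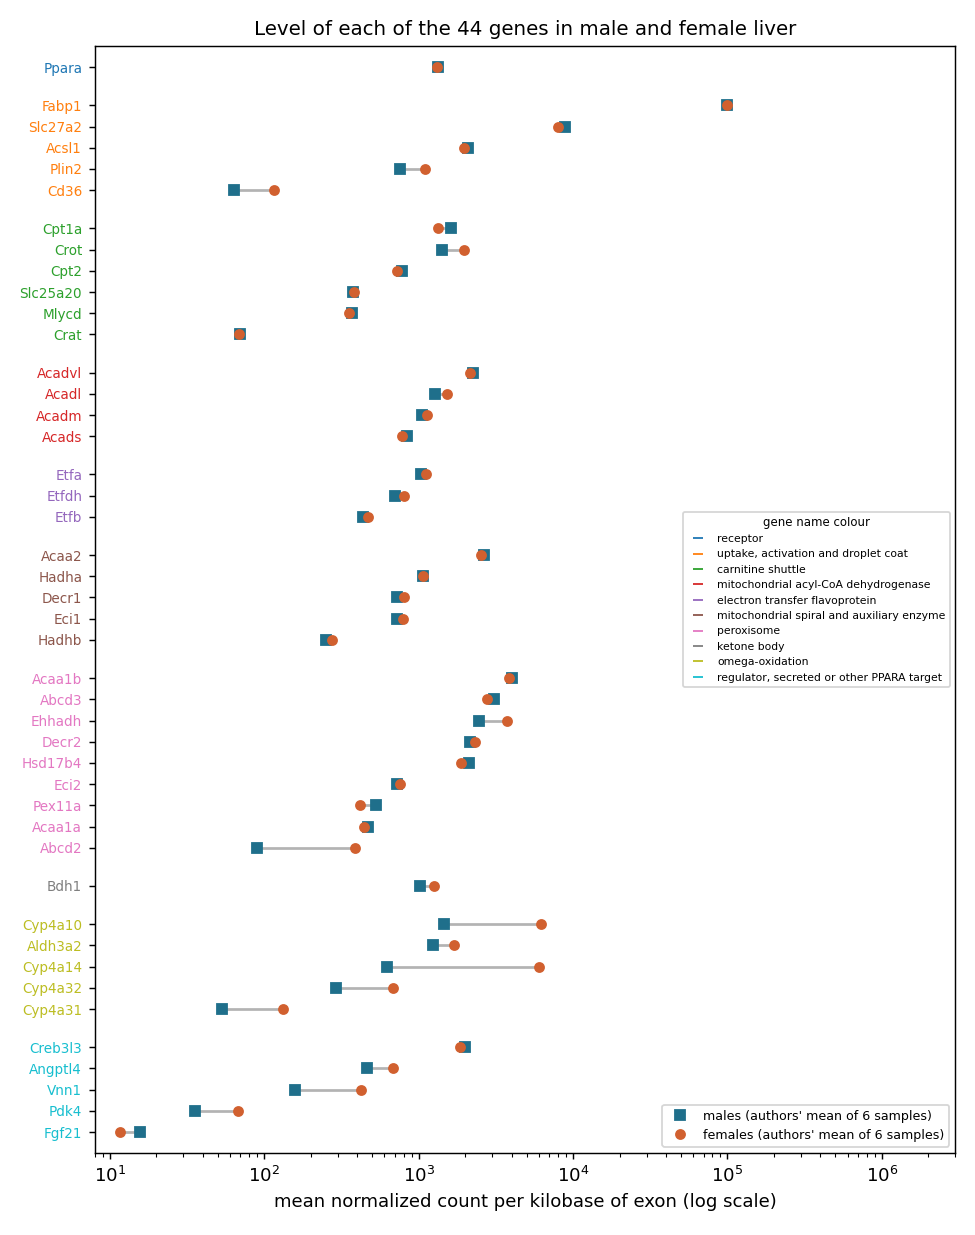
Mean normalized count per kilobase of exon (log scale) of each of the 44 genes, with males as squares and females as circles, each the authors' mean of 6 samples, and with gene names coloured by role. Fabp1 stands highest and Fgf21 lowest in both sexes, and the widest gaps between the symbols are those of Cyp4a14, Abcd2 and Cyp4a10.

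Ppara itself was expressed at nearly the same level in both sexes. Its mean normalized count was 8738 in males and 8657 in females, and per kilobase it ranked 609th of all ranked genes in males and 624th in females. The log2 ratio of the female to the male mean, each taken per 1000000 of the sum over genes listed in both tables, was -0.04. Ppara stood 15th among the 44 genes per kilobase in males and 18th in females.

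The genes of uptake and activation held the 2 highest places. Fabp1, whose product carries fatty acids in the cytosol, had a mean of 67192 in males and 67115 in females. Per kilobase it was 99691 and 99577, and it ranked 8th of all genes in both sexes. Slc27a2, a very-long-chain acyl-CoA synthetase and fatty acid transporter, had means of 41391 and 37510 and ranked 99th and 109th per kilobase. Acsl1, the main long-chain acyl-CoA synthetase of the liver, had means of 34129 in males and 31886 in females. Fabp1 alone made up 17.8% of the members' summed mean in males and 16.3% in females.

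The droplet coat protein and the plasma membrane receptor of this group were both higher in the female mean. Plin2, which coats lipid droplets, had a mean of 5833 in males and 8406 in females, a log2 ratio of 0.50, and 1.29% of its windows have an exact 150-base copy elsewhere. Cd36, a fatty acid receptor of the cell surface, had means of 806 and 1465, a 1.79-fold higher female mean. Cd36 was among the 5 lowest of the 44 genes per kilobase of exon in both sexes. In males this depends on the length used. With the longest transcript as the length its male value of 184 lay above the 126 of Crat and the 124 of Abcd2, outside the 5 lowest. Both genes are also expressed in adipocytes, and all 3 adipocyte markers were higher in the female mean. Adipoq had means of 3.10 and 18.3, Plin1 3.64 and 18.4, and Retn 1.77 and 10.2, a summed mean of 8.51 in males and 47.0 in females, and their part in the ratio of Cd36 and Plin2 was not tested. The 3 stellate cell markers were also higher in the female mean, by 1.25-fold to 1.40-fold, with the same limit.

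The 6 genes of the carnitine shuttle did not differ by 2-fold between the means. Of all genes compared, only 3.59% had a female mean at least 2-fold above the male and 1.53% the reverse. The shuttle itself moves acyl chains into mitochondria, and the group also holds genes that act beside it, such as Crot and Mlycd. Cpt1a, whose product catalyses the controlled step of entry, had a mean of 17614 in males and 14691 in females, a log2 ratio of -0.29. Cpt2, its partner on the inner membrane, had means of 2694 and 2506, so that per kilobase Cpt1a exceeded Cpt2 by 2.06-fold in males and 1.85-fold in females. Crot, the octanoyltransferase of peroxisomes, had the highest ratio of this group, with means of 13512 and 18732 and a log2 ratio of 0.45. Slc25a20, the carnitine-acylcarnitine carrier, was nearest to equality of all 44 genes, with means of 2624 and 2673 and a log2 ratio of 0.003, and 8.34% of its 150-base windows have an exact copy elsewhere in the genome. Crat, the carnitine acetyltransferase, was among the 5 lowest of the 44 genes per kilobase in both sexes, with means of 742 and 737. Mlycd, which removes malonyl-CoA, the inhibitor of the entry step, had means of 1751 and 1683.

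No gene of the mitochondrial spiral of oxidation differed by 1.5-fold between the means, and 85.4% of all genes compared were also within 1.5-fold. The 4 acyl-CoA dehydrogenases, which take the first step on chains of different length, had log2 ratios from -0.13 for Acads, through -0.08 for Acadvl and 0.07 for Acadm, to 0.23 for Acadl. Acadvl, which acts on very long chains, was the highest of them, with a mean of 8852 in males and 8492 in females. The electron transfer flavoprotein passes their electrons to the respiratory chain. Its subunits Etfa and Etfb and its oxidoreductase Etfdh had log2 ratios of 0.09, 0.09 and 0.18. Etfa exceeded Etfb by 2.38-fold per kilobase in both sexes. Etfb shares exon bases with genes annotated on the same strand, as does Crot, so their counts may be split or lost there.

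The enzymes that complete each turn stayed within the same range. Acaa2, the mitochondrial thiolase, had a mean of 17131 in males and 16278 in females and was the fifth highest of the 44 genes per kilobase in males. Hadha and Hadhb, the subunits of the trifunctional protein, had means of 10253 and 3956 in males and of 10184 and 4300 in females. Per kilobase Hadha exceeded Hadhb by 4.27-fold in males and 3.90-fold in females. This ratio depends on the annotated exon lengths, 15733 bases for Hadhb and 9550 for Hadha. With the longest transcript as the length it was 4.62 in males and 4.22 in females. The count of Hadhb is also uncertain, since 15.8% of the 150-base windows of its longest transcript have an exact copy elsewhere, in the pseudogene Hadhb-ps. Decr1 and Eci1, which prepare unsaturated chains for the spiral, had log2 ratios of 0.13 and 0.10.

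Of the 9 peroxisomal genes, 1 had a female mean at least 2-fold above the male, beside 3.59% of all genes compared. None had the reverse, beside 1.53%. Peroxisomes shorten very long and branched chains. Acaa1b and Acaa1a encode close copies of the peroxisomal thiolase, and Acaa1b was the more abundant, with means of 18331 in males and 17712 in females against 4122 and 3888. Per kilobase Acaa1b exceeded Acaa1a by 8.56-fold in males and 8.77-fold in females. With the longest transcript as the length the same ratios were 5.87 and 6.01. The 2 genes share exact 150-base runs over 5.25% and 3.94% of their windows.

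The other enzymes of this group were high in both sexes. Ehhadh, the bifunctional enzyme of the branch that serves PPARA-induced oxidation, had a mean of 7664 in males and 11574 in females, a 1.49-fold higher female mean, and stood 6th of the 44 genes per kilobase in both sexes. Hsd17b4, the second bifunctional enzyme, had means of 11289 and 10055. Decr2, the peroxisomal dienoyl-CoA reductase, had means of 6206 and 6703. Eci2, a peroxisomal isomerase, had means of 5515 and 5798. Pex11a, which takes part in the division of peroxisomes, had means of 1687 and 1328 and the second lowest log2 ratio of the 44 genes, -0.37.

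The pair of peroxisomal transporters diverged. Abcd3, the main transporter of this kind in liver, had a mean of 21378 in males and 19330 in females, a log2 ratio of -0.17. Abcd2, which carries very long and polyunsaturated acyl-CoA, had means of 749 and 3233, a 4.24-fold higher female mean with a log2 ratio of 2.08. Per kilobase Abcd3 exceeded Abcd2 by 34.0-fold in males and by 7.12-fold in females. Neither gene shares a 150-base run with another, and Abcd2 lies on chromosome 15 (GRCm39, chr15:91029881-91076310, minus strand).

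Bdh1, which interconverts the 2 main ketone bodies, was the only ketone body gene among the 44. Its mean was 4646 in males and 5743 in females, a log2 ratio of 0.28.

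The 5 genes of omega-oxidation among the 44 were all higher in the female mean, beside 55.0% of all genes compared. Cyp4a12a and Cyp4a12b, which are outside the 44 and are described below, had higher male means. Of the 5, 4 had a female mean more than 2-fold above the male, beside 3.59% of all genes. These 4 are Cyp4a genes of one cluster and are not independent of each other. The summed mean normalized count of the 5 genes was 13879 in males and 42282 in females. Cyp4a14 had a mean of 1666 in males and 15983 in females, 9.44-fold higher on this scale of 1000000 per table, which was the largest ratio of the 44 genes. Only 0.390% of all genes compared had a higher ratio. Cyp4a10 had means of 3102 and 13045, a 4.14-fold higher female mean. Cyp4a32 had means of 630 and 1479, a 2.31-fold higher female mean. Cyp4a31, the lowest of the 4, had means of 136 and 336, a 2.44-fold higher female mean. Aldh3a2, the fatty aldehyde dehydrogenase that acts downstream of the hydroxylases, had means of 8345 and 11439 and a log2 ratio of 0.43.

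The places of Cyp4a10 and Cyp4a14 among the 44 genes also differed between the sexes. Per kilobase, Cyp4a10 stood 13th of the 44 genes in males and 3rd in females, and Cyp4a14 stood 29th in males and 4th in females. Cyp4a10 exceeded Cyp4a14 by 2.35-fold in males, while in females the pair stood at 6176 and 6000, a ratio of 1.03. With the longest transcript as the length this ratio was 2.21 in males and 0.968 in females, so which of the pair is higher in females depends on the length used. The 4 Cyp4a genes made up 1.47% of the members' summed mean in males and 7.48% in females. They lie in one stretch of chromosome 4 (GRCm39), which begins with Cyp4a14 (chr4:115343397-115353344, minus strand). Cyp4a10, Cyp4a31 and Cyp4a32 share exact 150-base runs with other genes over 4.69%, 4.15% and 6.15% of their windows, and how reads divided among them was not tested. Cyp4a14 shares none.

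A pair of Cyp4a genes outside the 44, from the fixed list of other pathway genes, ran the opposite way. Cyp4a12a, an arachidonic acid hydroxylase known to be male-specific in mice, had a mean of 7120 in males and 36.3 in females, a 199-fold higher male mean. Cyp4a12b, its close copy, had means of 2891 and 10.8, and how reads divided between these copies was not tested. Over the 6 Cyp4a genes the summed level per kilobase was 6456 in males and 13008 in females. Cyp4a12a and Cyp4a12b held 62.2% of that sum in males and 0.145% in females, whereas Cyp4a10 and Cyp4a14 held 32.4% and 93.6%.

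**Figure D2:**
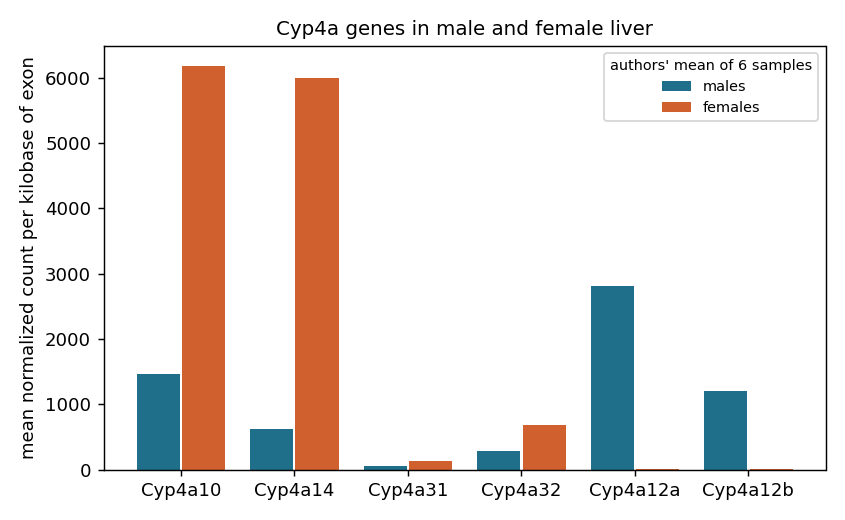
Bars give the mean normalized count per kilobase of exon of the 4 Cyp4a members and of Cyp4a12a and Cyp4a12b in males and females, each the authors' mean of 6 samples with no error available. Cyp4a10 and Cyp4a14 reach 6176 and 6000 in females, and Cyp4a12a is the tallest male bar at 2814.

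The regulators, secreted factors and remaining targets spanned both directions. Vnn1, a pantetheinase and a sensitive PPARA target, had a mean of 546 in males and 1455 in females, a 2.62-fold higher female mean. Pdk4, which restrains pyruvate oxidation when fat is burned, had means of 136 and 257, a 1.86-fold higher female mean, and was the second lowest of the 44 genes per kilobase in both sexes. Angptl4, a secreted inhibitor of lipoprotein lipase, had means of 2093 and 3076, a log2 ratio of 0.53. Pdk4 and Angptl4 are also expressed in adipocytes, whose markers are given above, and their part in these ratios was not tested. Creb3l3, a hepatic transcription factor that acts with PPARA, was high and even, with means of 7338 and 6753. Fgf21, the fasting hormone of the liver, was the lowest of the 44 genes, with means of 21.4 and 15.8, and its log2 ratio of -0.47 was also the lowest.

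Across the 44 genes, 6 had a female mean at least 2-fold above the male mean, namely Cyp4a14, Abcd2, Cyp4a10, Vnn1, Cyp4a31 and Cyp4a32, and none had a male mean at least 2-fold above the female. Among the 17194 genes listed in both tables with a mean of 10 or more in at least 1 sex, 617 (3.59%) met the first criterion and 263 (1.53%) the second. Genes whose female mean was below 6.61 had no row in the female table, so the second share leaves out genes that were very low in females. With a minimum mean of 100 the shares were 1.99% and 1.53% of 11443 genes. Of the 6, 4 belong to the one Cyp4a cluster and are not independent of each other. Just outside the 2-fold limit stood Pdk4 at 1.86-fold and Cd36 at 1.79-fold, and just inside it Cyp4a32 at 2.31-fold.

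**Figure D3:**
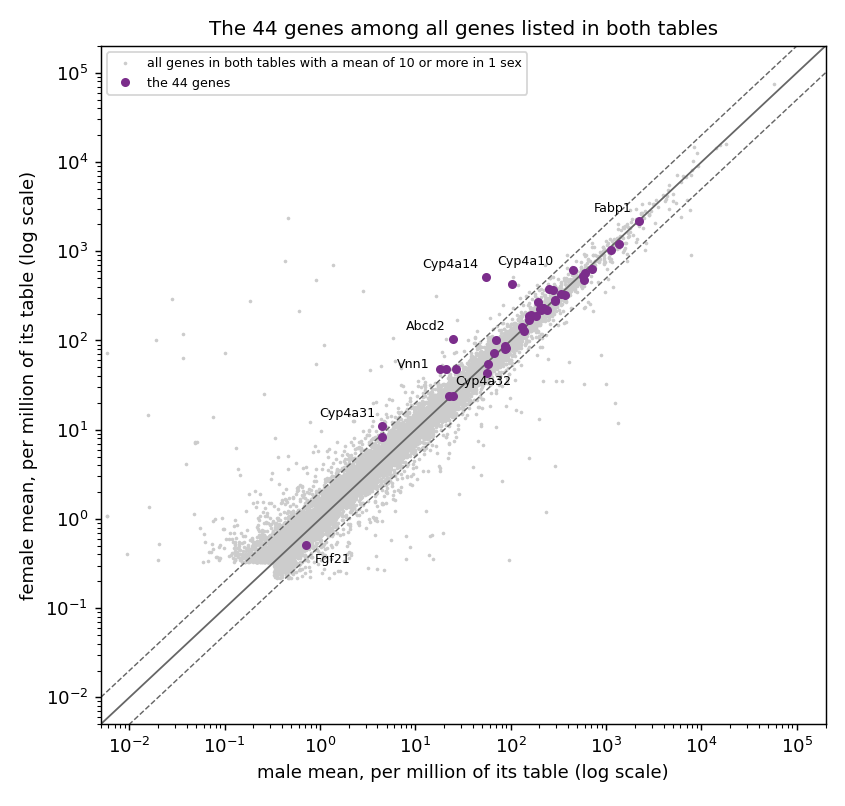
Each grey point is a gene listed in both tables with a mean of 10 or more in at least 1 sex, at its male mean (x) and female mean (y) per 1000000 of its table on log axes, for the 17178 genes with a male mean above 0. Purple points are the 44 genes, the solid line is equality and the dashed lines are 2-fold, and 6 purple points lie above the upper dashed line and none below the lower one.

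Small differences between the means were about as common among the 44 genes as among all genes. Of the 44 genes, 36 (81.8%) were within 1.5-fold between the means, against 85.4% of all genes compared. The female mean was the higher one for 25 of the 44 (56.8%), close to the 55.0% of all genes. The median log2 ratio was 0.08 for the 44 genes and 0.04 for all genes. Without the 4 Cyp4a genes it was 0.03 over 40 members. With a minimum mean of 100 the median was 0.087 for the members and -0.010 for all genes.

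**Figure D4:**
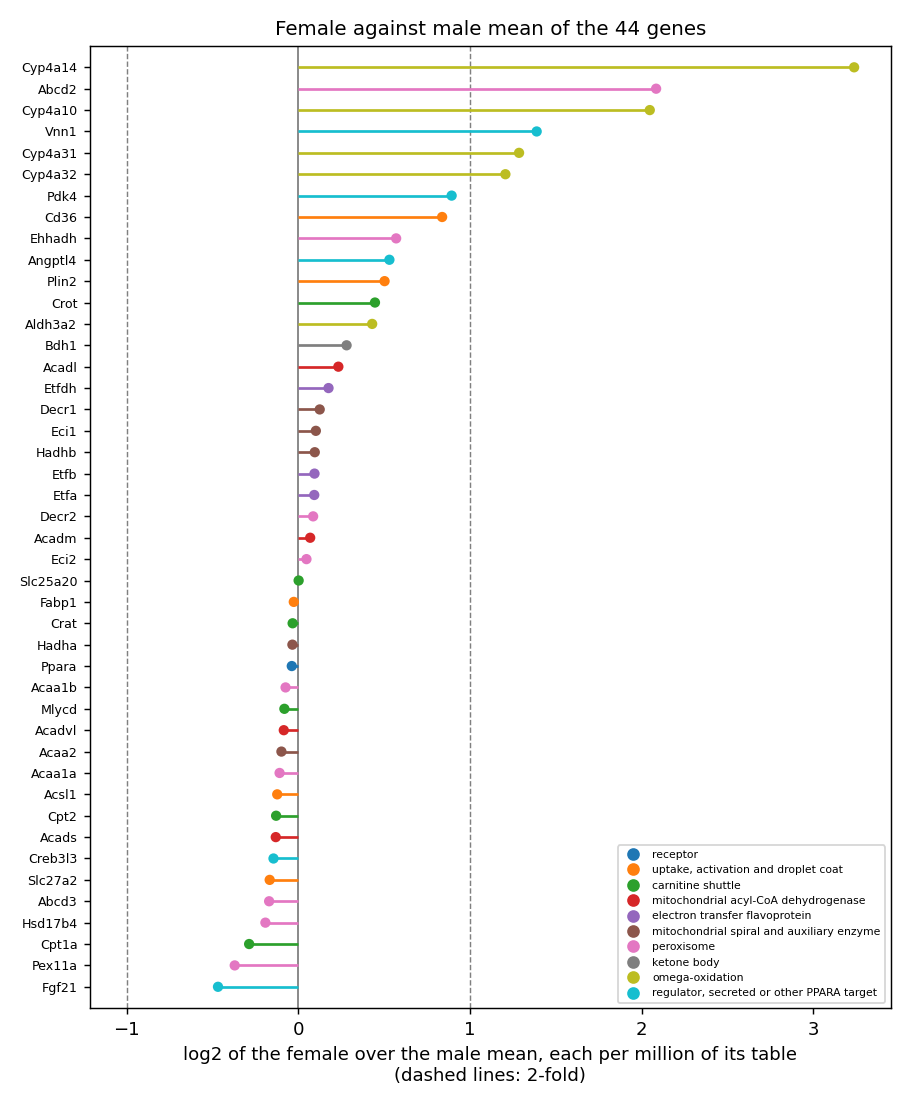
The log2 ratio of the female to the male mean, each per 1000000 of its table, is drawn for each of the 44 genes in order and coloured by role, with dashed lines at 2-fold in either direction. The ratios run from -0.47 for Fgf21 to 3.24 for Cyp4a14, and most lie within the dashed lines.

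A fixed list of 33 other genes of the pathway, all listed in both tables, had a different balance. The list was chosen with earlier results of these data known. Of the 33 genes, 1 had a female mean at least 2-fold above the male and 4 the reverse, beside the 3.59% and 1.53% of all genes. The higher mean was in females for 13 of the 33, beside 55.0% of all genes. Their median log2 ratio was -0.15. Hacl1, which cleaves carbon from 2-hydroxy acyl chains in peroxisomes, had means of 320 in males and 1094 in females, a 3.37-fold higher female mean. The other 4 were Cyp4a12a, Cyp4a12b, Scp2 and Nudt7. Cyp4a12a and Cyp4a12b are close copies and are not independent of each other. Scp2, which encodes the peroxisomal thiolase of branched chains and a sterol carrier, had means of 77045 and 31530. Nudt7, a peroxisomal hydrolase of coenzyme A, had means of 17998 and 7209. Rxra, the partner of PPARA, had means of 15193 and 13899 and differed by less than 2-fold.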

How the data were processed

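Libraries were rRNA-depleted, strand-marked and read as 150-base pairs. STAR 2.7 was used by the authors for alignment to GRCm39, HTSeq for counting per Ensembl gene and DESeq2 for the males and the females separately. The deposited signal used here is a mean over the 6 libraries of one sex, after division of the counts by size factors. Other deposited columns hold the authors' comparison of Midn-T with WT (fold changes, errors, statistics, p-values) and were not used. The ATAC-seq peak lists hold positions and directions chosen by such a comparison and were not used.

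Means were scaled per 1000000 of the sum over the 18149 genes listed in both tables. Exon lengths came from GENCODE M39 (GRCm39). Exact 150-base copies of each member's longest transcript were searched in the genome and transcripts, and the search was tested on simulated data. Promoters came from RefSeq GRCm38.p6. Python 3.11.15, numpy 2.4.6 and pandas 2.3.3 were used.

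Members and lists were chosen with earlier results of these data known. Named were the 10 highest and 5 lowest members per kilobase, those past 2-fold, Ppara and those sharing 150-base runs, and the rest are given by value within their role. Protein identity, also part of that rule, was not analysed here. Marker lists for Kupffer, endothelial and stellate cells had summed means of 6715, 6266 and 8651 in males and 7153, 7187 and 11321 in females.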

Additional observations from a re-analysis of the deposited data

How the results depend on the processing

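The 6 members past 2-fold stayed past it under 3 other scalings of the tables (as deposited, centred on the median ratio, without the 10 genes of highest mean) and with no minimum mean or a minimum of 100. The share of all genes past 2-fold in the female direction was 3.72%, 3.23% and 3.99% under these scalings. It was 4.11% with no minimum mean and 1.99% with a minimum of 100. The number of members was 3 without those that share 150-base runs, which removes Cyp4a10, Cyp4a31 and Cyp4a32. It was 3 at a 3-fold limit, beside 1.36% of all genes, and 8 at 1.5-fold, beside 10.3%. No member was past 2-fold in the male direction under any of these, beside 1.41% to 1.65% of all genes at 2-fold. The median log2 ratio of the members was 0.10 as deposited, against 0.063 for all genes. It was 0.040 centred on the median ratio, which sets the median of all genes to 0. Without the 10 genes of highest mean it was 0.13, against 0.088. With a minimum mean of 100 it was 0.087, against -0.010. Without the members sharing runs it was 0.059, against 0.039. The members' share of the summed mean was 1.47% in males and 1.64% in females without the 10 genes of highest mean, and 1.30% and 1.42% over protein-coding genes. The count in the top 10% was 27 to 38 in males and 30 to 33 in females over 4 choices of length, gene type and minimum. No paired analysis was possible because the results come from no test, and no sample could be left out because each value is a mean over 6 samples. Depth per sample is unknown here.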
